A study of Rattus norvegicus with 15 samples.

Results

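MicroRNAs (miRNAs) in injured rat sciatic nerve were compared between day 7 and day 4 after injury. The comparison used 6 of the series' 15 arrays, 3 per day, each hybridised with total RNA from the nerve of adult male rats. It covered the miRNAs that the scanner software called detected on all 3 arrays of day 4 or on all 3 of day 7, 231 of the array's 350. Both groups share the injury, and they differ by the day of collection. The labels describe the injury both as a crush and as a resection, and the tissue both as injury site and as proximal stump, so the word injury stands here for either. No label gives a strain, or states that the arrays of a day came from separate animals, so the p-values rest on differences between arrays that may be technical. The other 9 arrays, from uninjured nerve (day 0) and from days 1 and 14, entered the model to estimate the spread. They also took part in setting the scaling, the floor and the detection filter of the fit. Otherwise they are given as reference levels.

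Between day 4 and day 7, 3 miRNAs rose and 8 fell. The rises were miR-455 (1.48-fold), miR-335 (1.43-fold) and miR-30c-1* (2.40-fold). The falls included the hypoxia miRNA miR-210 (1.64-fold), the neuron-enriched miR-137 (1.66-fold), miR-138 of the myelinating glia list (1.64-fold) and miR-324-3p (1.57-fold). The remaining falls were miR-466b and 3 faint miRNAs, miR-743a, miR-878 and miR-672, which were detected on all day 4 arrays and on no day 7 array. Between these days the 3 met the detection rule only through day 4, so their p-values are no independent support for a difference. Most of the profile differed little between the days: 186 of the 231 were within 1.25-fold in either direction, which is 80.5%, and 17 were beyond 1.5-fold. The level of miR-21, a well known injury miRNA, overlapped between the days.

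A mature miRNA guides the Argonaute complex to messenger RNAs that pair with its seed, bases 2 to 8 counted from its 5′ end, and lowers their stability or translation. MiRNAs with the same seed can share targets, and a hairpin can give rise to a mature miRNA from either arm. In older names, which the array uses, an asterisk marks the arm that was thought to be the less abundant. After injury to a peripheral nerve, Schwann cells lose their myelinating state and multiply, macrophages clear myelin and axon debris, fibroblasts lay down matrix, and axons grow back. Days 4 and 7 fall within this phase.

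The sequences shown first are those of the miRNAs that differed between the days, because they are the result of the comparison. They were taken from RefSeq on the rat assembly GRCr8, which held a mature sequence for 9 of the 11. MiR-335 and miR-455 are given by name only. The seed is in capitals and the rest in lower case. The miRNA that rose and had a sequence was the 3′ arm of miR-30c-1.
miR-30c-1-3p: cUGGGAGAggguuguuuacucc
Those that fell were the following.
miR-743a-3p: gAAAGACGccaaacuggguaga
miR-878: gCAUGACAccauacuggguaga
miR-672-5p: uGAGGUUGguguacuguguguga
miR-466b-5p: uAUGUGUGuguguauguccaug
miR-137-3p: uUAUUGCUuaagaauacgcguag
miR-138-5p: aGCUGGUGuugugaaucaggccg
miR-210-3p: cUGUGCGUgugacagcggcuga
miR-324-3p: cCACUGCCccaggugcugcugg
No 2 of these 9 shared a seed. MiR-743a-3p and miR-878 did share their last 10 bases, and 18 of their 22 positions were identical, so it is possible that their probes read some of the same RNA, which was not tested.

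In GRCr8, miR-743a-3p lies at chrX:150444098-150444119 and miR-878 at chrX:150474263-150474284, both on the minus strand and within 1 cluster of miRNA genes. MiR-672-5p lies at chrX:73192351-73192373, inside the gene Nexmif. MiR-30c-1-3p (chr5:139634467-139634488, minus strand) lies within Nfyc, near Mir30e, and miR-324-3p (chr10:55233413-55233434, plus strand) within Acadvl. MiR-466b has 2 hairpins, both within Sfmbt2 on chromosome 17, and miR-138 has 2, on chromosomes 8 and 19. The hairpin of miR-455 lies within Col27a1, a fibrillar collagen gene. The annotation used does not separate exons from introns.

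All levels below are log2 values of the background-subtracted intensity, scaled so that 0 is the 75th percentile of an array over the 164 miRNAs detected on all 15 arrays. A change is day 7 minus day 4 on that scale, with its standard error. It was tested with limma in 1 model of the 5 days (two-sided, Benjamini-Hochberg adjusted over all 231 miRNAs), and a change passed at an adjusted p under 0.05. By this test 4.76% of the 231 miRNAs passed, 1.3% upward and 3.46% downward, and 43 (18.6%) had an unadjusted p under 0.05.

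MiR-455 is a cartilage-associated miRNA. Its level was −4.91, −4.92 and −4.81 on the day 4 arrays and −4.39, −4.29 and −4.28 on the day 7 arrays. All day 7 arrays lay above all day 4 arrays, and the change was 0.56 ± 0.10 (adjusted p = 0.00669). The array reads miR-455 with 1 probe, and its name there does not say which arm it measures. The call ended with the software's total signal (0.56, adjusted p = 0.816), the deposited value table (0.89, adjusted p = 0.653) and normexp background correction (0.02, adjusted p = 0.890). Normexp was run with an offset of 50, above the mean miR-455 intensities of 18.9 on day 4 and 33.3 on day 7. Such an offset draws the log2 changes of faint miRNAs towards 0, so the normexp fit cannot decide whether their calls hold.

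MiR-335 comes from the imprinted gene Mest. It measured −2.37, −2.54 and −2.09 on day 4 and −1.91, −1.73 and −1.83 on day 7. The groups did not overlap, although the highest day 4 array came close to the lowest day 7 array, and the change was 0.51 ± 0.13 (adjusted p = 0.0360). The call ended with the software's total signal (0.51, adjusted p = 0.0634) and with normexp (0.31, adjusted p = 0.0996).

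MiR-30c-1* was at −6.56, −6.08 and −6.34 on day 4 and at −4.87, −5.23 and −5.10 on day 7. The 3 day 7 arrays stood clear of the day 4 arrays, and the change of 1.26 ± 0.30 (adjusted p = 0.0287) was the largest that passed in either direction. Its unscaled intensities were low, at 6.04, 8.14 and 6.79 and then 22.5, 17.3 and 20.1. Its partner miR-30c, from the other arm of that hairpin, gave 0.13 ± 0.11 (adjusted p = 0.529). With normexp background correction the value of miR-30c-1* was 0.08 (adjusted p = 0.619). MiR-327, named here after its values were seen, had a similar pattern, from −6.64, −5.95 and −6.29 to −4.92, −5.38 and −5.25, without overlap. It did not pass (1.11 ± 0.51, adjusted p = 0.261), and its SD over the 3 day 0 arrays was 1.31.

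MiR-324-3p had one of the 2 smallest adjusted p-values. Its level was −1.13, −1.14 and −0.99 on day 4 and −1.78, −1.72 and −1.73 on day 7. The day 7 arrays lay within a narrow band below every day 4 array, and the change was −0.65 ± 0.10 (adjusted p = 0.00244). Of the 11 it was the only one that passed in every alternative fit run. These fits included normexp, whose offset takes more from the changes of faint miRNAs than from those of brighter ones such as miR-324-3p.

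MiR-210 is induced by the hypoxia-inducible factor HIF and represses genes of mitochondrial respiration. The day 4 arrays gave −3.26, −3.29 and −3.28, and the day 7 arrays −3.89, −4.13 and −3.95. The groups were far apart relative to their spread, and the change was −0.71 ± 0.15 (adjusted p = 0.0264). The call ended with the software's total signal (−0.71, adjusted p = 0.142), with normexp (−0.41, adjusted p = 0.0507) and with no detection filter (adjusted p = 0.0554).

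MiR-138, a miRNA of brain and glia, read −1.20, −1.55 and −1.46 on day 4 and −2.10, −2.25 and −2.01 on day 7. Every day 7 array was lower than every day 4 array (−0.72 ± 0.17, adjusted p = 0.0287). The change was −0.46 with no scaling (adjusted p = 0.0558) and −0.57 with normexp (adjusted p = 0.0505), past the threshold in neither.

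MiR-137 is enriched in neurons. It gave −3.15, −3.36 and −3.22 on day 4 and −4.01, −4.06 and −3.85 on day 7, again without overlap (−0.73 ± 0.16, adjusted p = 0.0287). Its call ended with the software's total signal and the deposited value table, at changes as large (−0.73 and −0.74, adjusted p = 0.674 and 0.639). With no scaling and with normexp it ended at smaller ones (−0.47 and −0.40, adjusted p = 0.0739 and 0.0507). MiR-466b, one of a large family of repeated hairpins in Sfmbt2, gave −4.15, −4.24 and −4.09 on day 4 and −5.03, −5.02 and −5.19 on day 7. Its groups were separate as well (−0.92 ± 0.22, adjusted p = 0.0287). That call ended with the software's total signal (−1.10, adjusted p = 0.0634) and with normexp (−0.37, adjusted p = 0.0996). Because the family's members are close in sequence, its value may include related hairpins.

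**Figure D1:**
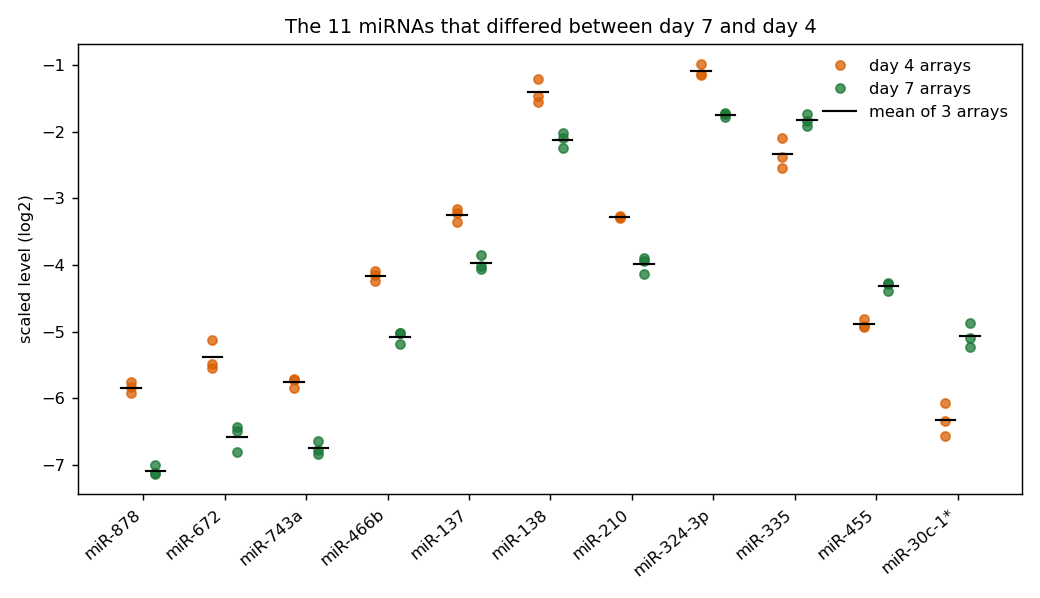
Scaled level (log2, vertical axis) of the 11 miRNAs that passed the test, on the 3 day 4 arrays (orange) and the 3 day 7 arrays (green), with bars at the means. In all 11 the 2 groups are separate, with miR-335, miR-455 and miR-30c-1* higher on day 7 and the other 8 lower.

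The 3 faint miRNAs that fell were read close to the detection limit. MiR-743a had unscaled intensities of 10.8, 9.58 and 10.4 on day 4 and 6.55, 5.93 and 6.03 on day 7. MiR-878 gave 9.99, 9.04 and 10.1 on day 4 and 4.69, 4.62 and 5.36 on day 7. Both were lower on every day 7 array, and both were detected on the 3 day 4 arrays and on no other array of the 15. They thus entered the test only through the group in which they were high, so their p-values are no independent support for a difference.

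Their cluster on the X chromosome is best known for expression in testis. Of the cluster's 10 miRNAs on the array, these 2 were the only ones detected on any array. Since neither was detected on day 7, its level there is only an upper limit. With that limit at the measured day 7 signal and the main scaling, miR-743a was at least 1.98-fold higher on day 4 (adjusted p = 0.00244) and miR-878 at least 2.37-fold higher (adjusted p = 0.0287). No scaling gave smaller changes, of −0.73 and −0.99 (adjusted p = 0.0395 and 0.0540), and so did normexp, of −0.27 and −0.29 (adjusted p = 0.123 and 0.112). The software's total signal gave larger ones, of −2.83 and −2.48 (adjusted p = 9.57e-13 and 2.98e-07). With the deposited value table they were −2.88 and −2.51 (adjusted p = 7.87e-07 and 1.23e-05). By the detection rule, these p-values are no independent support either. Without the detection filter miR-878 did not pass (adjusted p = 0.0554).

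Of the 2 days compared, miR-672 was also detected on day 4 only, with intensities of 16.4, 11.7 and 12.2 on day 4 and 7.28, 5.78 and 7.91 on day 7. By the same limit and scaling it was at least 2.29-fold higher on day 4 (adjusted p = 0.0287), and it was detected on 8 of the 15 arrays. Between the 2 days it met the detection rule only through day 4, where it was high. Its p-value is thus no independent support for a difference either. Its change was −0.94 with no scaling, −0.32 with normexp, −3.21 with the software's total signal and −3.36 with the deposited value table. The call ended with normexp (adjusted p = 0.0996), the software's total signal (0.0662), the deposited value table (0.0517) and no filter (0.0554). MiR-760-3p was the reverse case, detected on all 3 day 7 arrays and on no day 4 array. Its intensities were 0.500, 0.232 and 1.91 on day 4 and 3.77, 1.17 and 4.35 on day 7. The groups overlapped, and the change of 1.73 did not pass (adjusted p = 0.292). Only 1 of its 4 probes had the sign of that change, and the probes ranged from −2.19 to 1.60.

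Detection changed little otherwise. The number of miRNAs detected was 232.7 ± 3.2 per array on day 4 and 228 ± 7.2 on day 7 (SD, n = 3), which an exact permutation test did not separate (two-sided p = 0.6, where 3 against 3 cannot go below 0.1). Of the 231 miRNAs, 12 were detected on all of day 4 but not all of day 7, 3 the other way round, and the rest on each of the 6 arrays. The local background around the spots had a median of 21 to 22 on day 4 and 25 to 26 on day 7. Its part in the falls of the faint miRNAs was not tested. The 97 miRNAs detected on none of the 15 arrays had median intensities of −0.81 to −0.74 on day 4 and −1.30 to −0.23 on day 7. The mean signal of the negative control spots was 75.3 on the third day 4 array and 0.09 to 1.45 on the rest of the 6. Why it was high there was not tested.

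The plot of change against level shows where these miRNAs sit in the profile. When the 231 were cut into 3 equal bins by level, in the dimmest bin the median change was −0.12, and 2 miRNAs rose and 4 fell. In the middle bin the median was −0.07, with 1 rise and 2 falls. In the brightest bin it was 0.03, with no rise and 2 falls.

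**Figure D2:**
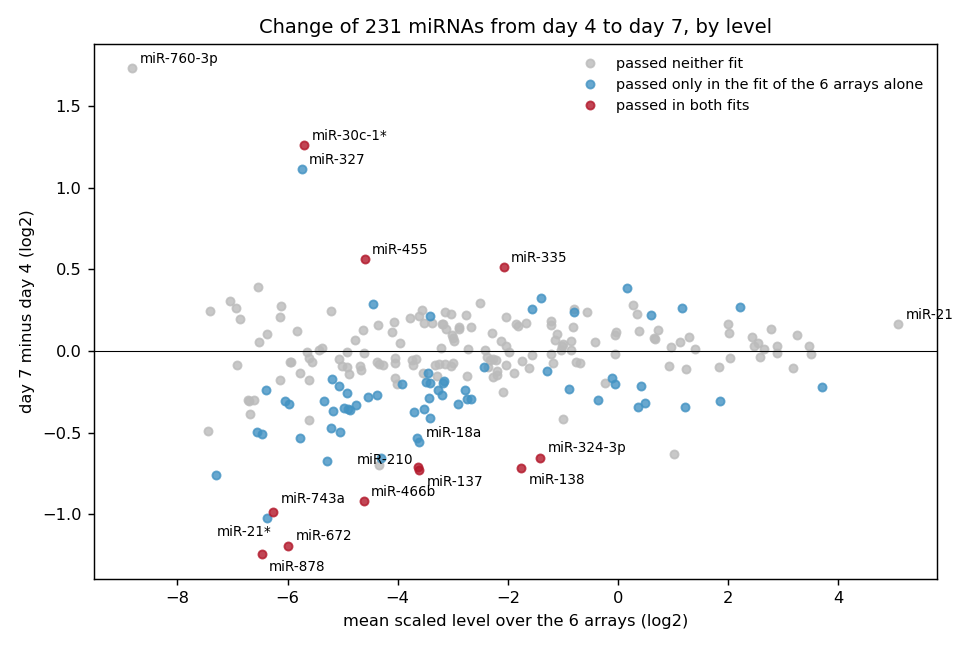
Change from day 4 to day 7 (log2, vertical axis) of 231 miRNAs against their mean scaled level over the 6 arrays (log2, horizontal axis), with each point 1 miRNA. Red points passed in the model of all 5 days and in the fit of the 6 arrays alone, blue points only in the latter, and most points lie within a narrow band around 0.

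Over the whole profile, the day 7 arrays were all above the day 4 arrays for 41 miRNAs (17.7%) and all below for 76 (32.9%). The median change over the 231 was −0.05.

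How many miRNAs passed depended on which arrays supplied the spread. Replicates agreed more closely on days 4 and 7, with a median SD of 0.080 and 0.063 per miRNA, than on days 0, 1 and 14 (0.162, 0.181 and 0.185). Fitted with limma on the 6 arrays alone, scaled on their own, 74 miRNAs passed (32%), 13 upward (5.63%) and 61 downward (26.4%). These included the 11. The median change was −0.09 with that scaling, beside −0.05 with the scaling of all 15. With the latter kept, the 6 arrays also gave 74, with 20 upward and 54 downward. With any 1 of the 6 arrays left out of the 5-day model, 3 or 4 passed. MiR-743a, miR-324-3p and miR-455 passed in all 6 of those fits, and miR-335 in 1. Without the third day 14 array, which stood apart from its group, 17 passed (5 up, 12 down). With no detection filter miR-743a, miR-324-3p and miR-455 passed, and the other 8 of the 11 did not (adjusted p = 0.0554 for each).

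Scaling set the balance of rises and falls. Against the 3 rises and 8 falls of the main scaling, there were 22 and 5 with no scaling, where the median change of all miRNAs became 0.20. Quantile normalisation gave 18 and 14, and the 75th percentile over all miRNAs 11 and 9. Each of the 11 kept its sign in all these fits. The day 4 arrays shared 1 slide and the day 7 arrays another, scanned on the same day, so slide and day after injury cannot be told apart. The first and second day 14 arrays were on the slide of day 7, and the day 0 and day 1 arrays were on other slides.

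MiR-138 was the one call among miRNAs of myelinating glia. That list had 7 members, of which 4 were tested, with 1 fall (beside 3.46% of all miRNAs), no rise and a median change of −0.07. MiR-338, the characteristic miRNA of myelinating glia, gave 3.02, 2.83 and 2.78 on day 4 and 2.98, 2.83 and 2.91 on day 7. These values overlapped fully (0.03 ± 0.17, adjusted p = 0.934). MiR-204 gave 0.07 ± 0.14 (adjusted p = 0.796) and the faint miR-211 by −0.18 ± 0.33 (adjusted p = 0.796). The 3 miRNAs of the miR-219 family on the list were not detected on any of the 6 arrays. In whole nerve, fewer cells of a type and less RNA per cell cannot be told apart.

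The levels on the other days place these changes in the series, as means ± SD of 3 arrays. MiR-138 was at −0.43 ± 0.24 on day 0, −0.44 ± 0.24 on day 1, −1.40 ± 0.18 on day 4, −2.12 ± 0.12 on day 7 and −2.18 ± 0.29 on day 14. MiR-338 was at 4.14 ± 0.33 on day 0 and 3.35 ± 0.24 on day 14, with day 4 and day 7 below both. MiR-210 was at −3.24 ± 0.23 on day 0, −3.06 ± 0.06 on day 1 and −3.91 ± 0.33 on day 14. Its day 4 level thus lay near that of uninjured nerve, and its day 7 level near that of day 14. Because the first and second day 14 arrays shared the day 7 slide, a likeness of these days cannot be told apart from a shared slide.

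MiR-455 was at −5.24 ± 0.18, −5.62 ± 0.12 and −3.83 ± 0.08 on days 0, 1 and 14, so that its mean was lowest on day 1 and highest on day 14. MiR-137 was at −3.92 ± 0.30, −3.12 ± 0.30 and −4.90 ± 0.14 on those days, and its day 7 mean was close to that of day 0. MiR-324-3p was at −1.47 ± 0.15, −1.39 ± 0.10 and −1.81 ± 0.14, so that its day 4 mean was the highest of the 5 days. MiR-30c-1* was at −5.90 ± 0.58, −4.59 ± 0.43 and −6.75 ± 0.41, and day 7 was thus its second highest mean after day 1.

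**Figure D3:**
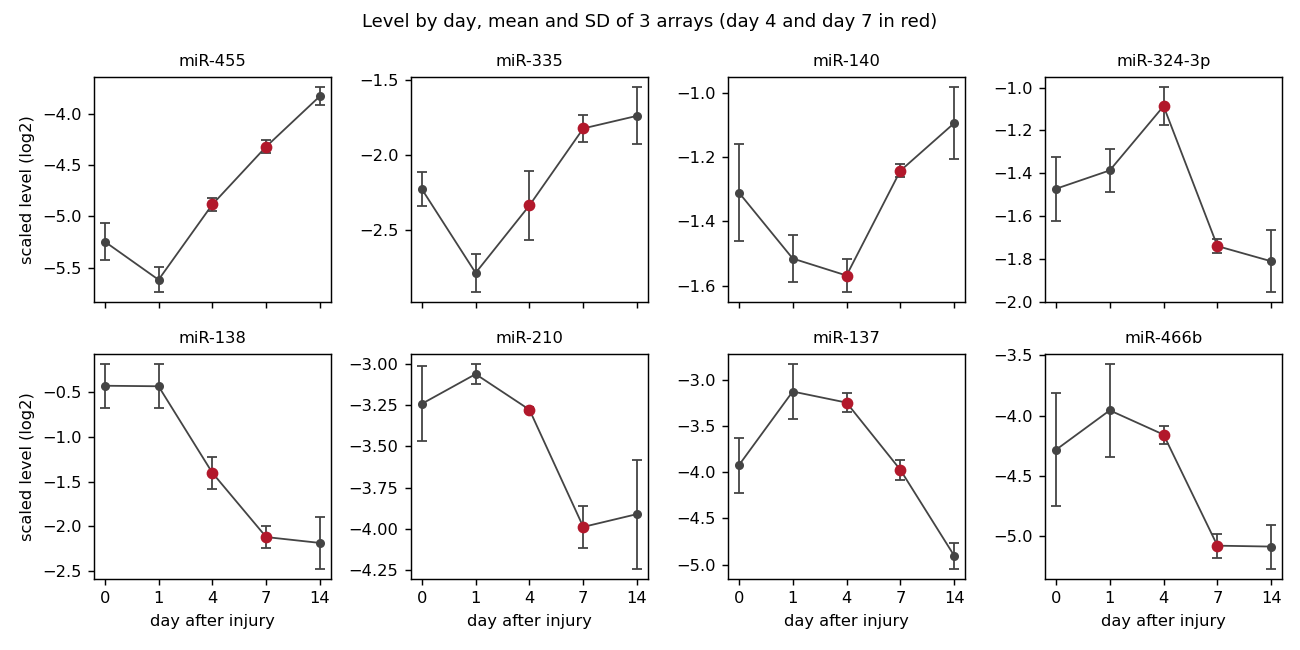
Scaled level (log2, vertical axis) by day after injury (horizontal axis, evenly spaced) for 8 miRNAs, with points at the mean of 3 arrays and bars for the SD. Days 4 and 7 are in red; miR-138 is lower on each of them than on days 0 and 1, and miR-324-3p has its highest mean on day 4.

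MiR-140 and miR-455 are both cartilage miRNAs, and the list of matrix and cartilage miRNAs held these 2 and the other arm of the miR-140 hairpin. All 3 were higher on every day 7 array than on every day 4 array, beside 17.7% of all miRNAs. Of the 3, 1 passed, beside 1.3% of all miRNAs upward. The median change was 0.33, beside −0.05 over all miRNAs. The 2 arms of miR-140 come from 1 hairpin within Wwp2 on chromosome 19 and have different seeds.
miR-140-5p: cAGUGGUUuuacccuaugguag
miR-140-3p: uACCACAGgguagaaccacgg
MiR-140 (the 5′ arm) was at −1.58, −1.51 and −1.61 on day 4 and −1.24, −1.22 and −1.26 on day 7. MiR-140* (the 3′ arm) was at −1.71, −1.73 and −1.65 and then −1.54, −1.40 and −1.38. Neither passed in the 5-day model (0.33 ± 0.09, adjusted p = 0.0521, and 0.26 ± 0.10, adjusted p = 0.195). In the fit of the 6 arrays alone both passed upward, beside 5.63% of all miRNAs. All 3 changes kept their sign under every scaling.

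Of the 5 miRNAs of smooth muscle and fibroblast none passed in limma's 5-day model (3 at an unadjusted p under 0.05, beside 18.6% of all miRNAs), and 1 passed upward in the fit of the 6 arrays alone, beside 5.63%. Their median change was 0.23. MiR-199a-3p, from the Dnm3os transcript of mesenchymal cells, was at 1.96, 2.07 and 2.18 on day 4 and 2.28, 2.41 and 2.33 on day 7. The groups did not overlap (0.27 ± 0.10, adjusted p = 0.178). MiR-199a-5p and miR-214, from the same transcript, gave 0.28 ± 0.11 (adjusted p = 0.205) and 0.23 ± 0.10 (adjusted p = 0.261). MiR-143 and miR-145, the smooth muscle pair, differed in sign, at 0.09 ± 0.10 and −0.15 ± 0.11. MiR-29a, miR-29b and miR-29c, which repress collagens, had values of −0.04, −0.34 and −0.16. MiR-29b and miR-29c were lower on every day 7 array, beside 32.9% of all miRNAs. Neither passed in limma's 5-day model (adjusted p = 0.135 and 0.500). Both passed downward in the fit of the 6 arrays alone, beside 26.4% of all miRNAs.

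The injury and growth list held 7 miRNAs. None passed in limma's 5-day model (1 at an unadjusted p under 0.05, beside 18.6% of all miRNAs). In the fit of the 6 arrays alone 5 passed downward, beside 26.4% of all miRNAs. The list's median change was −0.30, and −0.05 with no scaling, where 3 of the 7 were above 0. MiR-21, which is induced by injury in many tissues, was at 4.80, 5.14 and 5.08 on day 4 and 5.15, 5.23 and 5.13 on day 7. These groups overlapped (0.16 ± 0.12, adjusted p = 0.508), and both lay far above the 1.98 ± 0.14 of day 0.

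MiR-21*, the other arm of that hairpin, was at −5.89, −5.75 and −5.94 on day 4 and −6.85, −7.06 and −6.75 on day 7. The groups did not overlap, and the difference of −1.02 ± 0.58 did not pass in the 5-day model (adjusted p = 0.384), in which its day 14 SD was 1.74. In the fit of the 6 arrays alone it did (adjusted p = 0.000895).

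The list also holds 2 pairs of hairpin neighbours with a common seed, shown here because both members of each pair had values below 0. MiR-221 and miR-222 repress the cell cycle inhibitor p27, and miR-132 and miR-212 are induced by CREB in active neurons.
miR-221-3p: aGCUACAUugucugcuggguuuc
miR-222-3p: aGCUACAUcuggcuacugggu
miR-132-3p: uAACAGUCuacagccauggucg
miR-212-3p: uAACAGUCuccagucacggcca
MiR-221 was at −0.27, −0.19 and −0.19 on day 4 and −0.49, −0.53 and −0.53 on day 7. MiR-222 was at −2.80, −2.74 and −2.72 and then −3.06, −3.08 and −3.08. Both were lower on every day 7 array, beside 32.9% of all miRNAs, with changes of −0.30 ± 0.10 (adjusted p = 0.124) and −0.32 ± 0.19 (adjusted p = 0.417). Both remained above their day 0 means of −2.24 and −4.94.

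MiR-212 went from −3.22, −3.57 and −3.37 to −3.90, −3.84 and −4.02, without overlap (−0.53 ± 0.28, adjusted p = 0.343). MiR-132 went from −3.95, −3.72 and −3.78 to −4.13, −3.94 and −3.99, where the groups overlapped (−0.21 ± 0.11, adjusted p = 0.343). MiR-31, which was at −9.94 on day 0, measured −2.17, −1.80 and −1.92 on day 4 and −2.30, −2.15 and −2.19 on day 7. Its groups also overlapped (−0.25 ± 0.48, adjusted p = 0.796).

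The miR-17-92 family, which drives proliferation, had 12 tested members and a median change of −0.09. None passed in limma's 5-day model (1 at an unadjusted p under 0.05, beside 18.6% of all miRNAs). In the fit of the 6 arrays alone 5 of the 12 passed downward, beside 26.4% of all miRNAs. MiR-18a had the smallest adjusted p of the family, with −3.38, −3.26 and −3.38 on day 4 and −4.02, −3.83 and −3.85 on day 7. The groups were separate, and the change missed the threshold (−0.56 ± 0.16, adjusted p = 0.0677). Members of the same cluster gave smaller values, −0.12 ± 0.11 for miR-17-5p, −0.20 ± 0.11 for miR-20a and −0.02 ± 0.10 for miR-19b.

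The leukocyte list had 5 tested members, none passing in limma's 5-day model (1 at an unadjusted p under 0.05, beside 18.6% of all miRNAs). With 3 values above 0 and 2 below, its median was 0.03. MiR-142-3p, found throughout the blood lineage, was at −0.16, 0.02 and 0.01 on day 4 and 0.32, 0.47 and 0.25 on day 7, without overlap (0.39 ± 0.13, adjusted p = 0.136). MiR-223, typical of neutrophils and other myeloid cells, was at 0.46, 0.43 and 0.71 on day 4 and 0.15, 0.26 and 0.17 on day 7. It was lower on every day 7 array (−0.34 ± 0.17, adjusted p = 0.296).

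In the fit of the 6 arrays alone these 2 passed in opposite directions (adjusted p = 0.0135 and 0.0125). Of all miRNAs 5.63% passed upward in that fit and 26.4% downward. MiR-146a and miR-146b, which damp NF-kB signalling, were both higher on every day 7 array, beside 17.7% of all miRNAs. Their changes were 0.26 ± 0.09 (adjusted p = 0.183) and 0.26 ± 0.13 (adjusted p = 0.296). MiR-150, of mature lymphocytes, gave −0.13 ± 0.11 (adjusted p = 0.527).

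All 7 tested miRNAs of the neuron list had values below 0, with a median of −0.23, and miR-137 was the 1 that passed. In the fit of the 6 arrays alone 5 of the 7 passed downward, beside 26.4% of all miRNAs. Under no scaling 5 of the 7 were above 0 and the median was 0.02, beside 0.20 over all miRNAs. MiR-124, the most characteristic neuronal miRNA, gave −3.18, −3.20 and −3.23 on day 4 and −3.53, −3.72 and −3.59 on day 7, without overlap (−0.41 ± 0.16, adjusted p = 0.204). MiR-128 (−0.24 ± 0.10) and miR-218 (−0.23 ± 0.14) were also lower on every day 7 array, while miR-9 (−0.04 ± 0.15), miR-9* (−0.09 ± 0.13) and miR-7a (−0.19 ± 0.09) overlapped. In total 4 of the 7 were lower on every day 7 array, beside 32.9% of all miRNAs.

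The sensory cluster of miR-182, miR-183 and miR-96 is transcribed as 1 unit in sensory neurons and hair cells. None of the 3 passed in limma's 5-day model (2 at an unadjusted p under 0.05, beside 18.6% of all miRNAs), 2 passed downward in the fit of the 6 arrays alone, beside 26.4%, and the median change was −0.37. MiR-182 was at −3.87, −4.07 and −3.98 on day 4 and −4.61, −4.76 and −4.53 on day 7 (−0.66 ± 0.21, adjusted p = 0.114). MiR-183 (−0.37 ± 0.14, adjusted p = 0.203) and miR-96 (−0.16 ± 0.16, adjusted p = 0.615) were likewise lower on every day 7 array, beside 32.9% of all miRNAs.

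**Figure D4:**
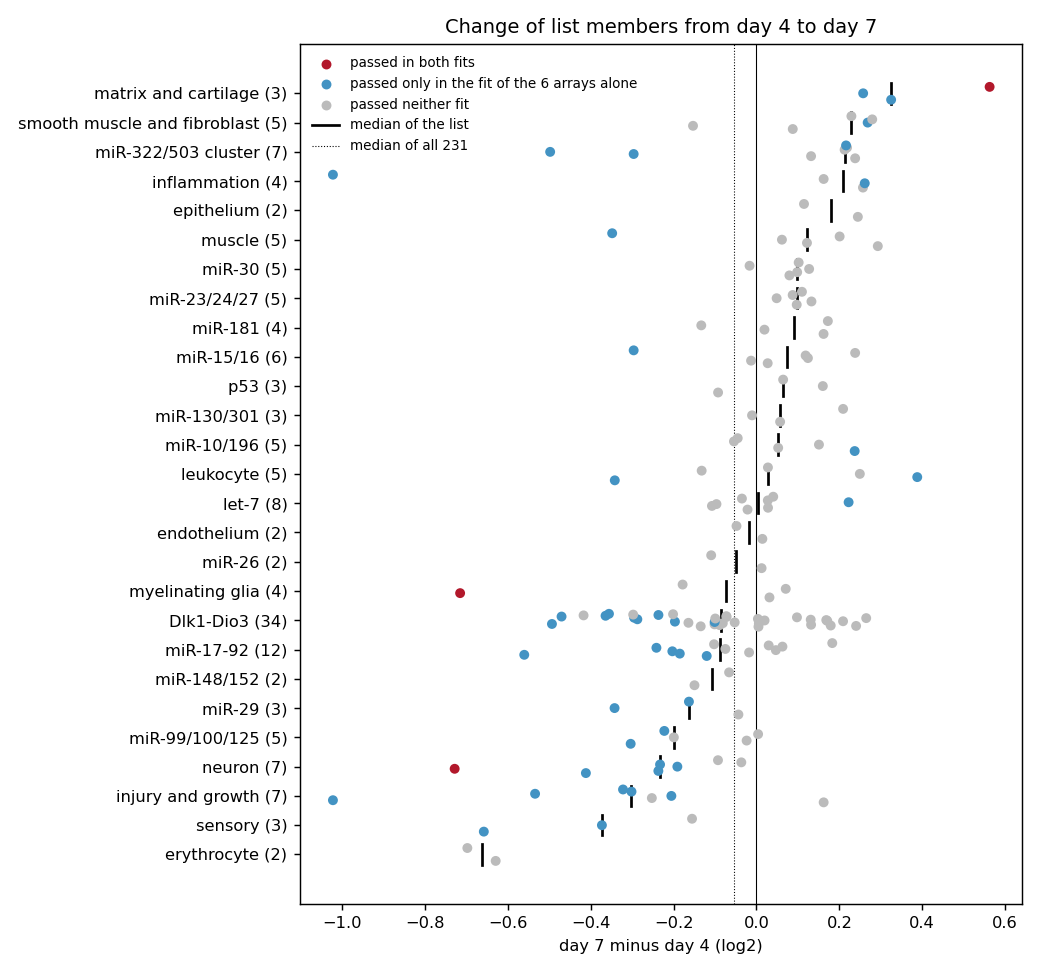
Change from day 4 to day 7 (log2, horizontal axis) of the tested members of each list with 2 or more of them (number in parentheses), with the list's median as a black bar and the median of all 231 miRNAs as a dotted line. Red points passed in both fits and blue points only in the fit of the 6 arrays alone; the matrix and cartilage list has the highest median, 0.33, and the erythrocyte list the lowest, −0.66.

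The imprinted Dlk1-Dio3 region holds a large miRNA cluster, with 34 tested members. None passed in limma's 5-day model (7 at an unadjusted p under 0.05), and 9 passed downward in the fit of the 6 arrays alone. These shares were close to the 18.6% and 26.4% of all miRNAs. Values were above 0 for 13 and below for 21, and the median was −0.08. The 4 members with the smallest adjusted p were miR-323 (−0.49 ± 0.13, adjusted p = 0.0521), miR-487b (−0.36 ± 0.13, adjusted p = 0.173), miR-410 (−0.30 ± 0.12, adjusted p = 0.205) and miR-433 (−0.47 ± 0.19, adjusted p = 0.211). All 4 were lower on every day 7 array, which their choice by adjusted p favours. Of the 34 members, 12 were lower on every day 7 array and 3 higher on every one, beside 32.9% and 17.7% of all miRNAs. The scaling moved the balance of this list to 26 above and 8 below 0 when none was applied.

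The let-7 family, which restrains proliferation and is abundant in nerve, had 8 members, no call and a median of 0.00. Let-7e had the largest value, 0.22 ± 0.09 (adjusted p = 0.205). The list of miR-23, miR-24 and miR-27 had 5 members, all with values above 0 (beside 97 of all 231) and none passing, and a median of 0.10. The miR-30 list (5 members, median 0.10), the list of miR-15 and miR-16 (6, median 0.07), the miR-181 list (4, median 0.09), the list of miR-10 and miR-196 (5, median 0.05) and the list of miR-130 and miR-301 (3, median 0.06) also had no call. The same held for the list of miR-99, miR-100 and miR-125 (5, median −0.20), the p53 list of miR-34 (3, median 0.06), the list of miR-148 and miR-152 (2, median −0.11) and the miR-26 list (2, median −0.05). MiR-33, which represses cholesterol export, gave 0.19 ± 0.20 (adjusted p = 0.611). Over these 12 lists with 49 miRNAs, none of which passed in limma's 5-day model, 5 had an unadjusted p under 0.05, beside 18.6% of all miRNAs. In the fit of the 6 arrays alone 2 of the 49 passed upward and 3 downward, beside 5.63% and 26.4%.

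The cluster of miR-322 and miR-503 on the X chromosome had values on both sides of 0. Of its 7 members 5 had values above 0 and 2 below, with a median of 0.21. None passed in limma's 5-day model (2 at an unadjusted p under 0.05, beside 18.6% of all miRNAs). MiR-503, which was lower on every day 7 array (beside 32.9% of all miRNAs), gave −0.30 ± 0.13 (adjusted p = 0.261). MiR-322, from the neighbouring hairpin, was higher on every one (beside 17.7%), at 0.24 ± 0.11 (adjusted p = 0.261). In the fit of the 6 arrays alone 1 member passed upward and 2 downward, beside 5.63% and 26.4% of all miRNAs.

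Markers of other tissues varied within the days. MiR-1, of muscle, was at −2.18, −2.85 and −2.95 on day 4 and −3.66, −1.65 and −1.79 on day 7, so that the day 7 arrays lay both above and below day 4 (0.29 ± 0.99, adjusted p = 0.892). The 5 tested muscle miRNAs had no call in limma's 5-day model, also none at an unadjusted p under 0.05, a median of 0.12 and a summed scaled level of 0.452 to 0.560 on day 4 and 0.270 to 0.849 on day 7. MiR-451, of red blood cells, was at 1.85, 1.38 and 0.74 on day 4 and 0.08, 0.64 and 1.35 on day 7 (−0.63 ± 0.59, adjusted p = 0.578). With miR-144 (−0.70 ± 0.60) it made up the erythrocyte list, whose summed level was 1.72 to 3.70 on day 4 and 1.09 to 2.61 on day 7. Their part in the changes above was not tested.

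MiR-126 and miR-126* of endothelium gave 0.01 ± 0.10 and −0.05 ± 0.09. Of the 7 epithelial miRNAs, 5 were not detected on the 6 arrays, and the other 2, miR-203 and miR-205, gave 0.24 ± 0.14 and 0.11 ± 0.10. The 4 miRNAs of liver and pancreas were not detected on any of the 6.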

How the data were processed

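Total RNA was labelled with cyanine 3 and hybridised to Agilent rat miRNA arrays. The deposited intensity values are spot signals after background subtraction, unscaled between arrays; per the file headers the software was Feature Extraction 10.7.3.1 of Agilent, and the same files hold detection flags. The authors' deposited value table, whose values are log2, served only as an alternative. Spots were averaged per probe and probes per miRNA, control spots and outlier flags were left out, and the values of an array were divided by their own 75th percentile, taken over 164 miRNAs that all 15 arrays detected. They were floored at 0.000587, the lowest scaled value of a detected miRNA (log2 −10.73), and log2 transformed. The fit took miRNAs that 3 of 3 arrays detected on 1 or more of the 5 days, and was made with limma 3.58.1 in R 4.3.3, in 1 model of the 5 day means. These were the same 231 that were detected on all arrays of day 4 or of day 7. Other steps used Python 3.11.15, pandas 2.3.3 and scipy 1.17.1. The fit was tested on simulated data in which a miRNA had the same spread on all days. That test does not cover the unequal spread between days seen in these arrays. The number of arrays limits the precision.

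Sequences, positions and host genes came from RefSeq tables of GRCr8, where 147 of the array's miRNAs and 119 of the 231 matched by name. The text names the miRNAs that passed without overlap, a set of miRNAs given whatever their result, members of the lists (all of lists with 7 or fewer, otherwise up to 4 with the smallest adjusted p), those detected on 1 day only, and those that share a seed or hairpin with one named. Members and lists were chosen with earlier results of these data known. Alternatives changed the signal column, background correction, scaling, source, floor, filter, arrays and blocks. Replicate numbers were not shown to pair the samples: the deviations of same-numbered day 4 and day 7 arrays correlated at 0.00, 0.29 and 0.08.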

Additional observations from a re-analysis of the deposited data

How the results depend on the processing

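The 11 calls (3 up, 8 down) and the median change of −0.05 depended on the arrays fitted and the scaling. Called miRNAs numbered 7 with the software's total signal (2 up, 5 down), 20 with the 75th percentile over all miRNAs (11 up, 9 down), 27 with no scaling (22 up, 5 down; median change 0.20), 32 with quantile normalisation (18 up, 14 down; median 0.011) and 22 with the deposited value table (8 up, 14 down; median 0.028). With no filter, 350 miRNAs were fitted and 3 passed (1 up, 2 down). The fit of the 6 arrays alone, scaled on their own, gave 74 (13 up, 61 down), and without the third day 14 array 17 passed (5 up, 12 down). Leaving out each of the 6 arrays in turn gave 3 to 4 calls, 1 to 2 up and 2 down, a median change of −0.06 to −0.04, and a difference in detected miRNAs of −7.67 to −0.67. The fit with a replicate block, which treats the numbers as paired, gave 11 calls, 10 of them shared with the 11; miR-335 was the one lost (adjusted p = 0.0691). A floor 2 times as high gave 11, and slide as a random block 14 (4 up, 10 down). The fit with no filter tested more miRNAs; otherwise the cause was not tested.

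Some alternatives were chosen after seeing the data. Background correction by normexp (offset 50) on the median signals gave 1 call (0 up, 1 down, median −0.13). That offset draws the changes of faint miRNAs towards 0, so this fit cannot decide on their calls. The planned version on mean signals was not run. The 6 arrays with the scaling of all 15 gave 74 calls (20 up, 54 down), and a floor at the median over arrays of the lowest detected value 14 (3 up, 11 down). None of the 117 named miRNAs changed sign in a fit where it passed.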
